A study of Mus musculus with 20 samples.

Results

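The genes described here are named for respiratory complexes II, III, IV and V and for cytochrome c, and most of them encode nuclear subunits of these complexes. They were chosen by symbol alone: Sdha, Sdhb, Sdhc, Sdhd, Cyc1, Cycs, and every symbol that begins with Uqcr, Atp5, Cox4, Cox5, Cox6, Cox7 or Cox8. This rule found 49 of the 24059 genes in the count tables. Of these, 4 belong to complex II, 9 to complex III, 18 to complex IV and 17 to complex V, and 1 is cytochrome c. Atp5s and Atp5sl meet the rule but are no core subunits, and subunits with other symbols (Usmg5 of complex V, for example) do not meet it. A filter on low counts left 47 to be tested. The others are testis isoforms of complex IV: Cox7b2 reached at most 5 counts in a library, and Cox8c had 0 counts in all 20. The subunits encoded by mitochondrial DNA were not analysed here.

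The 20 libraries form 4 groups of 5 and come from the left ventricular free wall of C57BL/6 males between about 9 and 13 weeks of age. GRflox (GRfl/fl) are the littermate controls, in which both copies of Nr3c1, the gene of the glucocorticoid receptor, are floxed and no Cre is present. CardioGRKO mice carry the same floxed alleles and 1 copy of alphaMHCCre (GRfl/fl alphaMHCCre/+), a transgene whose alpha myosin heavy chain promoter drives the recombinase in cardiomyocytes. Each genotype was sampled at ZT0, when lights went on, and at ZT12, when lights went off. All 4 groups thus share the floxed alleles and the strain. No group carries Cre without floxed alleles, so effects of receptor loss and of Cre itself cannot be told apart. The title of the series places its question in the role of the cardiomyocyte receptor in the daily transcription of the heart. The labels number the libraries of a group but do not say that each comes from its own animal, so p-values measure the spread between these libraries, which may be technical.

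Oxidative phosphorylation takes place in the inner mitochondrial membrane. Complex II oxidises succinate as part of the citric acid cycle and passes the electrons to ubiquinone. Complex III moves them on to cytochrome c, and complex IV hands them to oxygen. Complexes III and IV pump protons as they do so, and complex V, the ATP synthase, uses the return of these protons to make ATP. Cardiomyocytes are densely packed with mitochondria, and heart muscle has its own isoforms of several small subunits of complex IV: Cox6a2, Cox7a1 and Cox8b stand there in place of the ubiquitous Cox6a1, Cox7a2 and Cox8a.

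The libraries held 5854462 to 37648421 counts, with a median of 23223656. At ZT0, CardioGRKO replicate 1 had the fewest. It also stood apart over all genes, at 34.5 on the first principal component of log2 CPM, where the other 4 libraries of its group lay between 15.8 and 19.0 and GRflox at ZT0 between -13.3 and -9.80. A number in its file differs from the one that the 19 others share, and no label says what the number marks. Nr3c1 was lower in CardioGRKO, with a log2 fold change of -1.06 ± 0.06 (adjusted p = 2.04e-11) at ZT0 and -1.08 ± 0.06 (adjusted p = 5.17e-12) at ZT12, where the value after ± is the standard error and p is that of edgeR's quasi-likelihood test, adjusted by the Benjamini-Hochberg method over all 14007 genes tested. In CPM, the count of a gene per library total after scaling by the trimmed mean of M-values (TMM), its libraries ran from 105.9 to 122 in GRflox and from 51.9 to 61.1 CPM in CardioGRKO at ZT0, with no overlap, as the labels have it. A gene is said to have risen, fallen or been called where that adjusted p was under 0.05. All 10 cardiomyocyte markers (Myh6, Tnnt2, Tnni3 and others) were detected, whereas of 3 erythroid markers 2 had 0 counts in every library. The third was detected in all 4 groups, so blood was not shown to be absent. Its level ran from 4.89 to 22.3 CPM in GRflox and from 8.21 to 18.8 CPM in CardioGRKO at ZT0. At ZT12 it ran from 4.35 to 51.9 CPM in GRflox and from 5.42 to 21.1 CPM in CardioGRKO.

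Upstream sequences were read for 38 of the 49 members from RefSeq on GRCm38.p6, as windows of 250 bases before each annotated start (42 windows, since a few members have more than 1). Shown here are those of the isoform pairs on which the comparison of heart and ubiquitous forms turns, as far as the table held them, and of Sdhd, a member with no genotype call under the scaling used throughout (on the marker scale described below it was called as higher). Capitals mark matches, on either strand, to the ETS core CCGGAAG, to the palindromic NRF1 motif (with a free base at its centre) or to the E-box CAGCTG, and each sequence runs 5′ to 3′ on the strand of its gene.
Cox6a1 (chr5:115348959-115349208, minus strand): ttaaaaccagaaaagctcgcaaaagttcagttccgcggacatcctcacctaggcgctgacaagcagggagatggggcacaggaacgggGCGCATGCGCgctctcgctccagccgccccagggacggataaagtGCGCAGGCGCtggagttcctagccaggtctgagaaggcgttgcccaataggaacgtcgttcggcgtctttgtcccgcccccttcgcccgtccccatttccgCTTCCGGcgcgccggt
Cox7a1 (chr7:30183921-30184170, plus strand): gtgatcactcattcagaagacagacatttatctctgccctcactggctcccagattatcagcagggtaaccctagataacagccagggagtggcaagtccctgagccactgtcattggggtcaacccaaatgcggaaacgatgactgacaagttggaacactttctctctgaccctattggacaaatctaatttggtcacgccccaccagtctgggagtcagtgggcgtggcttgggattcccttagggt
Cox7a2 (chr9:79759854-79760103, minus strand): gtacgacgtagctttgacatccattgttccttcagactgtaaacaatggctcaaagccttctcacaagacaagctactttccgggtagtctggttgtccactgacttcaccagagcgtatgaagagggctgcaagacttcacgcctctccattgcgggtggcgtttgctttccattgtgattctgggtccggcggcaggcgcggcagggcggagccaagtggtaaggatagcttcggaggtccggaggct
Cox8b (chr7:140900447-140900696, minus strand): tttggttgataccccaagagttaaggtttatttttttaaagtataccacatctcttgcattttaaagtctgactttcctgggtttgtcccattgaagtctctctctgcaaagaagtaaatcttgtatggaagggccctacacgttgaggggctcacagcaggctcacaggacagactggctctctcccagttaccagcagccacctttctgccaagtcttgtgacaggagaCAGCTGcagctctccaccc
Cox8a (chr19:7217617-7217866, minus strand): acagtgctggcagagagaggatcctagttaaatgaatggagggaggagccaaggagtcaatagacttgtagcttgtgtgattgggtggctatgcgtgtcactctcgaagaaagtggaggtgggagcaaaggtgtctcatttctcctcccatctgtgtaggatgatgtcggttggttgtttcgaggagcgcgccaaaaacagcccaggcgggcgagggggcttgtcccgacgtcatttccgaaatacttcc
Sdhd (chr9:50603850-50604099, minus strand): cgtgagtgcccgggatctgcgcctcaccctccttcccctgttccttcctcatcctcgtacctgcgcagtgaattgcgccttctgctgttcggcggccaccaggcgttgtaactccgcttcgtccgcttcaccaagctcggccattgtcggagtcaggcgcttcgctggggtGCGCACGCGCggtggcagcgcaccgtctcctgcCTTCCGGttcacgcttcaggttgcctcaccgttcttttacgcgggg
Among these, the ubiquitous Cox6a1 and Sdhd each held both an ETS core and at least 1 NRF1 match, and the heart isoform Cox8b held an E-box. No match was found in the windows of Cox7a1, Cox7a2 and Cox8a.

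Over all members, the ETS core stood in 9 of 42 windows (21.4%), against 6.91% of the 32851 windows of all genes. ETS factors include Gabpa, a known activator of genes for respiratory chain subunits. The NRF1 motif stood in 7 windows (16.7%, against 3.74% of all), and Sdha held 3 copies of it. The E-box stood in 2 windows (4.76%, against 13.0% of all), those of Cox8b and Atp5b. A TATAAA run was found in 2 member windows (4.76%, against 12.4%) and the estrogen-related receptor motif AAGGTCA in 2 (4.76%, against 4.08%). The palindromic glucocorticoid response element was found in 0 member windows and in 0.387% of all. Both strands were searched, and the letters of these motifs can overlap by chance. A match is a description of letters and not a bound site.

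The genotype comparison asks how these transcripts differ between hearts with and without the cardiomyocyte receptor. On the TMM scale every called member was lower in CardioGRKO, whereas most calls were higher when libraries were scaled to cardiomyocyte markers, a choice made after seeing the data. At ZT0, 22 of 47 members fell and 0 rose with TMM (2 fell and 10 rose on the marker scale). Over all genes 7.35% fell and 7.36% rose with TMM, and 2.08% fell and 32.7% rose on the marker scale. At ZT12, 31 fell and 0 rose (3 fell and 13 rose on the marker scale), against 10.7% and 10.4% of all genes with TMM and 2.81% and 55.9% on the marker scale. The fitted value was below 0 for 42 and 46 of 47 members with TMM. Without replicate 1 of CardioGRKO, the shallowest library and the one that stood apart over all genes, 16 fell at ZT0, and without replicate 4 also 16. Of the members, 21 fell at both times, 1 at ZT0 only and 10 at ZT12 only, and 15 were called at neither. The member median of the log2 fold change was -0.12 at ZT0 and -0.19 at ZT12, beside -0.01 and 0.00 over all genes tested. Groups did not overlap for 12 members at ZT0 (all lower; 5.99% of all genes did so lower and 5.95% higher) and for 25 members at ZT12 (all lower; 7.22% and 6.6%). Together, members made up 3.47 to 3.60% of the counts of GRflox libraries and 3.21 to 3.34% of those of CardioGRKO at ZT0. At ZT12 these shares were 3.43 to 3.62% and 3.05 to 3.29%, so the genotypes did not overlap at either time.

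**Figure D1:**
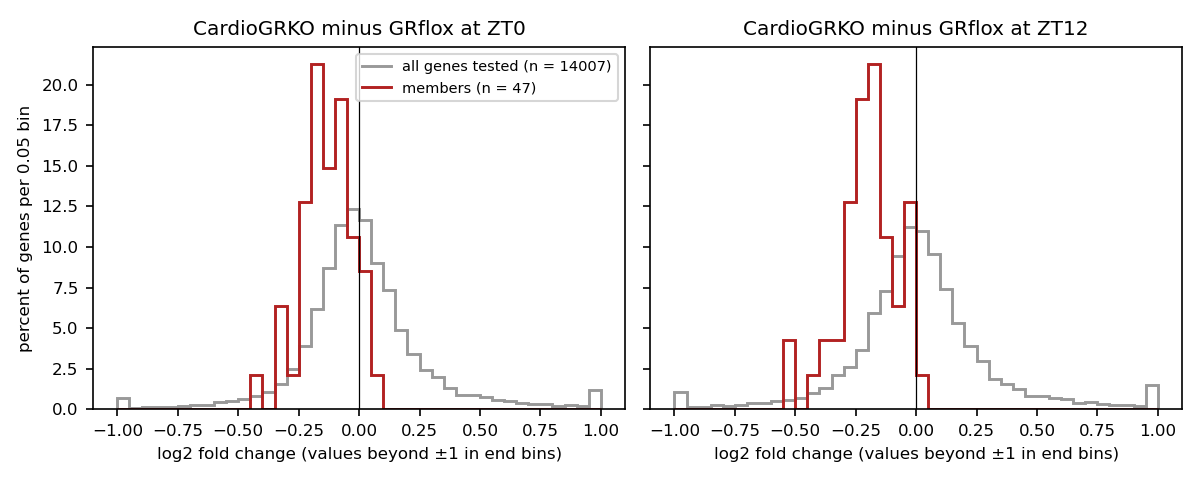
Distribution of the log2 fold change between CardioGRKO and GRflox (x axis) at ZT0 (left) and ZT12 (right), as the percent of genes per bin of 0.05 (y axis), for all 14007 genes tested (grey) and the 47 members (red). With the TMM scaling shown, members lie mostly left of 0, with medians of -0.12 and -0.19, while all genes centre near 0; scaled to cardiomyocyte markers the member medians are 0.05 and 0.05.

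Levels relative to the whole library cannot tell fewer cardiomyocytes from less RNA of these genes per cardiomyocyte. The 10 cardiomyocyte markers fell too, 6 of 10 at ZT0 and 9 of 10 at ZT12, with medians of -0.17 and -0.25. Their summed level ran from 116536 to 121687 CPM in GRflox and from 101000 to 108524 CPM in CardioGRKO at ZT0, and from 122910 to 127001 and 100171 to 114949 CPM at ZT12. Endothelial markers fell as well (5 and 4 of 10), with sums of 1475 to 1635 and 1309 to 1435 CPM at ZT0 and of 1218 to 1325 and 1058 to 1218 CPM at ZT12. Of 8 fibroblast markers 0 fell at either time and 1, Col3a1, rose at ZT12, and of 6 macrophage markers 0 were called between genotypes. Pericyte and smooth muscle markers went both ways, with 3 of 8 lower and 1 higher at ZT0 and 1 each at ZT12. Of 2 adipocyte markers tested, Cidea, which heart muscle also expresses, rose at both times, while Adipoq reached at most 1.36 CPM in any library and Ucp1 had 0 counts in CardioGRKO. Of 2 skeletal muscle markers tested, Tnnt3 rose at ZT0, at no more than 1.26 CPM, and Ckm, which the heart also expresses, fell at ZT12. None of the cardiomyocyte, endothelial, fibroblast, pericyte and macrophage markers measured had 0 counts throughout a group, and the part of cell composition in the member differences was not tested. Scaling libraries to the summed counts of the 10 cardiomyocyte markers gave the marker scale above. It moved the median of all genes to 0.16 and 0.25, and the member medians to 0.05 and 0.05. On this scale the member medians were thus close to 0 and under those of all genes. Uqcrc1 (-0.30 and -0.37 on the usual scale) and Cox6a2 stayed called as lower under it at both times, and Cox7a1 at ZT12. Their log2 fold changes were then -0.13 and -0.13 for Uqcrc1, -0.24 and -0.26 for Cox6a2, and -0.16 for Cox7a1 at ZT12.

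**Figure D2:**
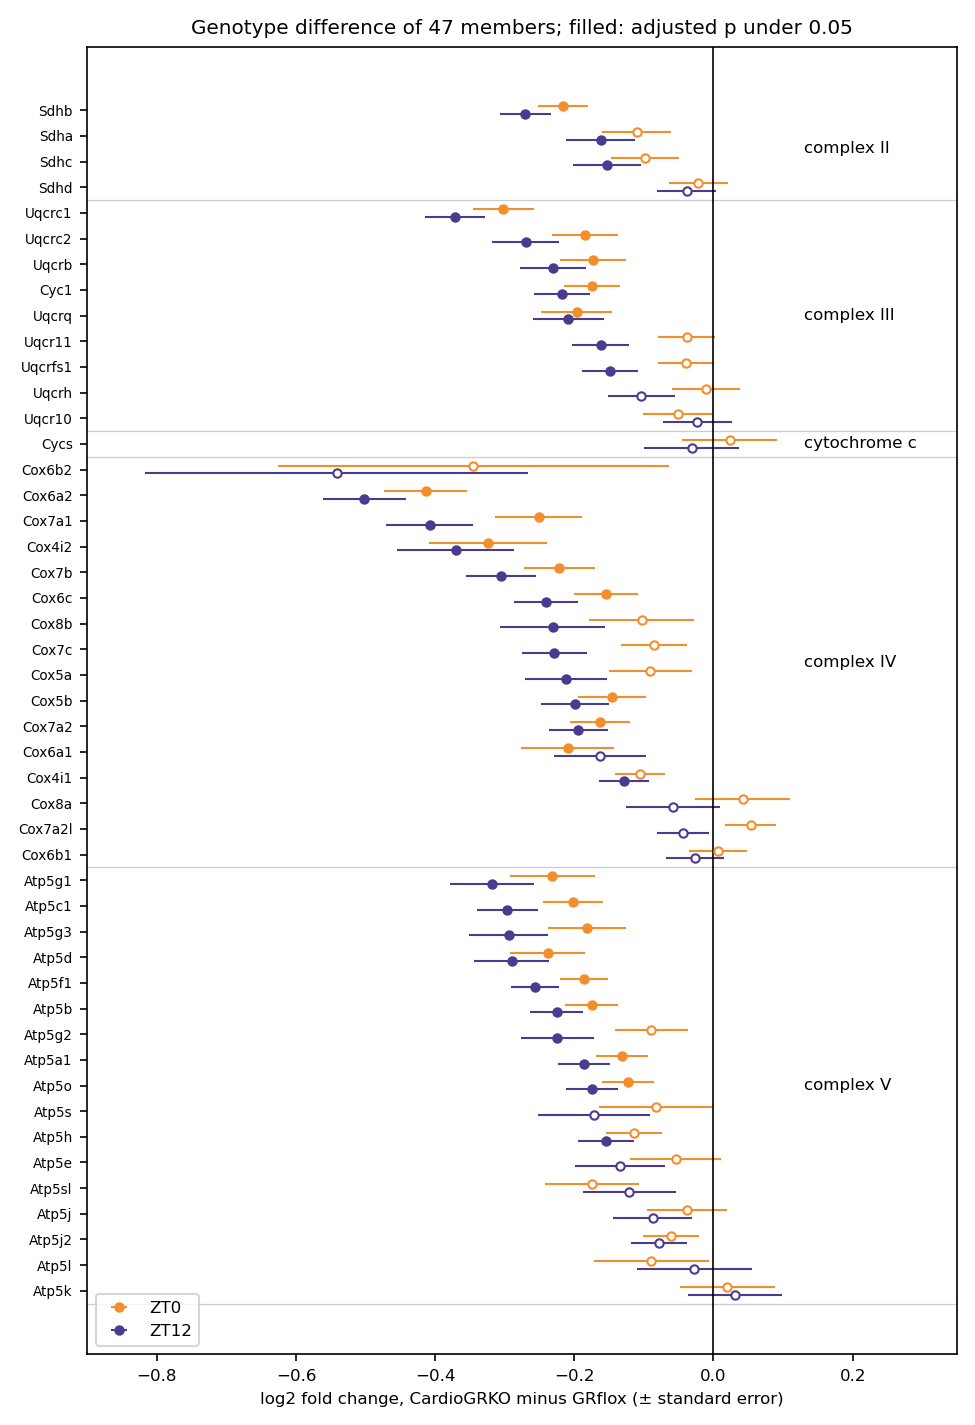
Log2 fold change between CardioGRKO and GRflox of each of the 47 members tested (x axis; bars are standard errors), grouped by complex, at ZT0 (orange) and ZT12 (purple), with filled points where the adjusted p was under 0.05. All filled points lie left of 0, and Cox6b2, counted at about 1 CPM, has the longest bars. TMM scaling is shown. Scaled to cardiomyocyte markers, 10 of 12 calls at ZT0 and 13 of 16 at ZT12 are higher. Of all genes, 32.7% and 55.9% are called higher on that scale and 2.08% and 2.81% lower.

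Complex II has 4 subunits, all encoded in the nucleus. Its iron-sulfur subunit Sdhb (chr4:140961271-140979198) was counted at 723, 734, 707, 733 and 696 CPM in GRflox and at 608, 626, 634, 626 and 599 CPM in CardioGRKO at ZT0. At ZT12, Sdhb stood at 759, 763, 713, 723 and 731 CPM in GRflox and at 574, 645, 601, 624 and 614 CPM in CardioGRKO. All CardioGRKO libraries lay below all GRflox libraries at both times. The log2 fold change was -0.22 ± 0.04 (adjusted p = 1.89e-04) at ZT0 and -0.27 ± 0.04 (adjusted p = 6.62e-06) at ZT12.

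Sdha, the flavoprotein that binds succinate, was less clear. It was counted at 2059.8, 2065, 1993, 1972 and 2056 CPM in GRflox and 1764, 1787, 1948, 1864 and 2034 CPM in CardioGRKO at ZT0. At ZT12, Sdha stood at 2072, 2038, 1913, 1977 and 2004 CPM in GRflox and at 1666, 1989, 1679, 1709.8 and 1894 CPM in CardioGRKO. The groups overlapped at both times, with 1 CardioGRKO library at ZT0 and 1 at ZT12 inside the GRflox range. Its log2 fold change was -0.11 ± 0.05 (adjusted p = 0.141) at ZT0, and at ZT12 it fell, with -0.16 ± 0.05 (adjusted p = 0.0194). The membrane anchor Sdhc gave -0.10 ± 0.05 (adjusted p = 0.198) and -0.15 ± 0.05 (adjusted p = 0.0266), a fall at ZT12. Sdhd, the second anchor, gave -0.02 ± 0.04 and -0.04 ± 0.04 (adjusted p = 0.799 and 0.581). On the marker scale Sdhd was called as higher by edgeR, with 0.15 (adjusted p = 0.0132) and 0.21 (adjusted p = 5.20e-04). Complex II as a whole had 1 of 4 members lower at ZT0 and 3 of 4 at ZT12 (1 higher and 0 lower at each time on the marker scale), with medians of -0.10 and -0.16. The ZT12 calls of Sdha and Sdhc did not hold with each library left out in turn. Sdha lost its call without CardioGRKO replicate 1, 3 or 4 (-0.20 to -0.14 over all libraries left out in turn, adjusted p up to 0.0636). Sdhc lost its call without GRflox replicate 1 or 2 or CardioGRKO replicate 1 or 3 (-0.19 to -0.12, adjusted p up to 0.0924).

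In complex III, 5 of 9 members fell at ZT0 and 7 of 9 at ZT12 (on the marker scale 1 fell and 3 rose, and 1 fell and 2 rose), with medians of -0.17 and -0.21. Uqcrc1 (chr9:108936648-108949641), a core protein on the matrix side, had the largest change of the complex. It was counted at 1571, 1548, 1504, 1582 and 1420.3 CPM in GRflox and at 1184, 1226, 1302, 1262 and 1209 CPM in CardioGRKO at ZT0. At ZT12, Uqcrc1 stood at 1465, 1539.5, 1544, 1553 and 1546 CPM in GRflox and at 1164, 1243, 1080.5, 1265 and 1158 CPM in CardioGRKO. Every CardioGRKO library was below every GRflox library. Uqcrc1 fell by 18.9% at ZT0 and by 22.7% at ZT12, with log2 fold changes of -0.30 ± 0.04 (adjusted p = 2.87e-05) and -0.37 ± 0.04 (adjusted p = 1.02e-06).

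Uqcrc2, the second core protein, was counted at 1075, 1074, 1048, 1035 and 1069.8 CPM in GRflox and at 948, 910.2, 927, 838 and 1043 CPM in CardioGRKO at ZT0. At ZT12, Uqcrc2 stood at 1130.3, 1093, 1024, 1098 and 1114 CPM in GRflox and at 837, 953, 887, 908 and 944 CPM in CardioGRKO. At ZT0 replicate 5 of CardioGRKO lay inside the GRflox range, and at ZT12 the groups were apart. The log2 fold change was -0.18 ± 0.05 (adjusted p = 0.0105) and -0.27 ± 0.05 (adjusted p = 2.09e-04). Cytochrome c1 (Cyc1), which carries the haem that reduces cytochrome c, fell, with -0.17 ± 0.04 (adjusted p = 0.00428) and -0.22 ± 0.04 (adjusted p = 3.30e-04) on the log2 scale. The Rieske protein Uqcrfs1, the other redox subunit encoded in the nucleus, gave -0.04 ± 0.04 (adjusted p = 0.581) at ZT0 and fell at ZT12, with -0.15 ± 0.04 (adjusted p = 0.00861). Small subunits divided: Uqcrb and Uqcrq fell at both times (Uqcrq with -0.20 ± 0.05 and -0.21 ± 0.05), Uqcr11 at ZT12 (-0.16 ± 0.04, adjusted p = 0.00547), and the hinge protein Uqcrh and Uqcr10 at neither (-0.10 ± 0.05 and -0.02 ± 0.05 at ZT12). Uqcrb lost its ZT0 call without CardioGRKO replicate 4, with a value of -0.13 and an adjusted p of 0.0573. On the marker scale edgeR called Uqcrh as higher at both times (0.16 and 0.14) and Uqcr10 at ZT12 (0.22). Uqcrfs1 and Uqcr11 were called as higher on it at ZT0 (0.13 and 0.13).

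Cytochrome c itself (Cycs), the soluble carrier between complexes III and IV, gave 0.02 ± 0.07 (adjusted p = 0.879) at ZT0 and -0.03 ± 0.07 (adjusted p = 0.802) at ZT12. Its libraries ran from 464.5 to 520.0 CPM in GRflox and from 461 to 539.6 CPM in CardioGRKO at ZT0, and the ranges overlapped at ZT12 as well. On the marker scale Cycs was called as higher by edgeR at both times, with 0.20 (adjusted p = 0.0282) and 0.21 (adjusted p = 0.00971).

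**Figure D3:**
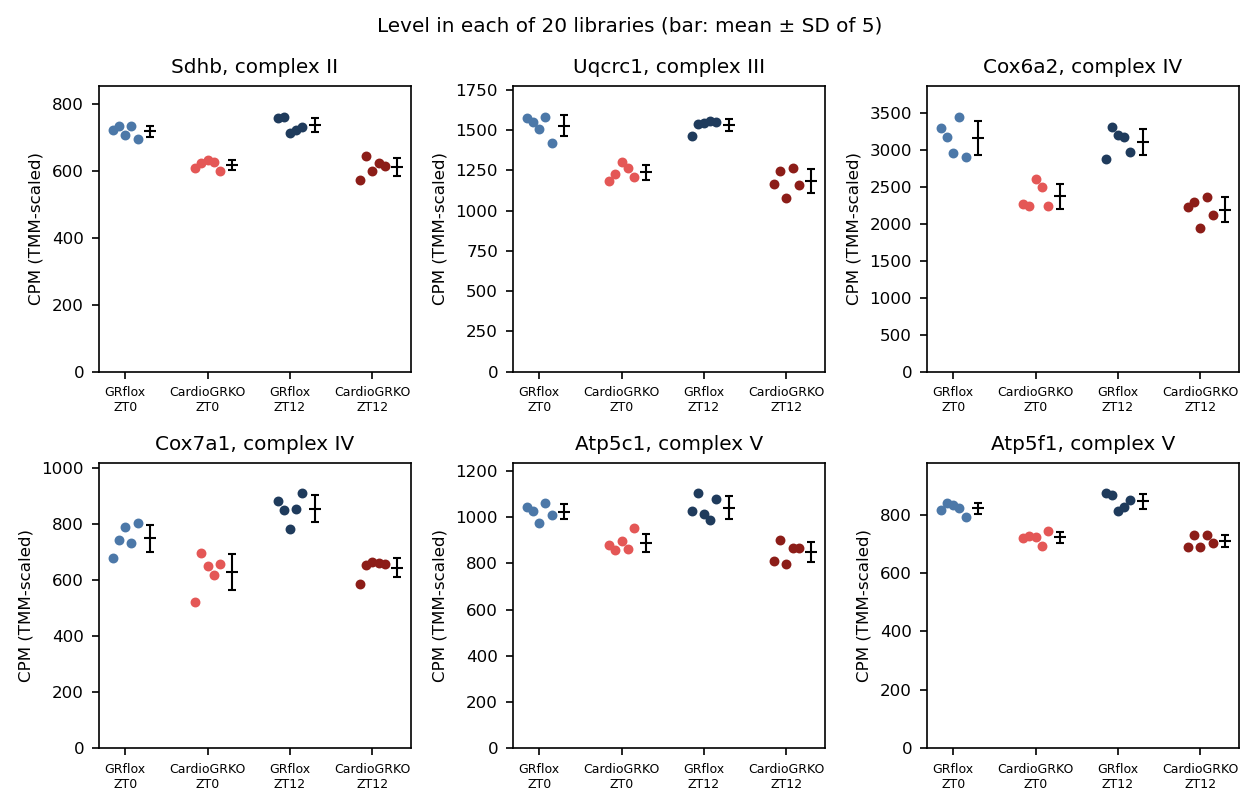
Level (y axis, CPM scaled by TMM, from 0) of 6 members in each of 20 libraries, by group (x axis); points are libraries and bars are the mean ± SD of 5. On this scale the CardioGRKO libraries lie below the GRflox libraries of the same time point, apart from Cox7a1 at ZT0, where the ranges overlap.

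Complex IV had 8 of 16 tested members lower at ZT0 and 11 of 16 at ZT12 (on the marker scale 1 lower and 3 higher, and 2 lower and 4 higher), with medians of -0.15 and -0.22. Cox6a2 (chr7:128205435-128206366), the heart and muscle form of subunit 6a, had the largest called change of all members at both times. It was counted at 3305, 3186, 2962, 3456 and 2914 CPM in GRflox and at 2268, 2249.8, 2609, 2504 and 2249 CPM in CardioGRKO at ZT0. At ZT12, Cox6a2 stood at 2886, 3314, 3205, 3178 and 2975 CPM in GRflox and at 2239, 2307, 1951, 2366 and 2125 CPM in CardioGRKO. The genotypes did not overlap at either time for Cox6a2. Cox6a2 fell by 24.9% and 29.4%, with log2 fold changes of -0.41 ± 0.06 (adjusted p = 2.87e-05) and -0.50 ± 0.06 (adjusted p = 1.22e-06).

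Its ubiquitous counterpart Cox6a1 was counted at 92.0, 93.6, 104, 97.1 and 80.0 CPM in GRflox and at 83.5, 82.9, 81.6, 81.6 and 73.3 CPM in CardioGRKO at ZT0. At ZT12, Cox6a1 stood at 87.7, 93.9, 98.5, 97.0 and 89.2 CPM in GRflox and at 81.3, 80.3, 88.1, 94.3 and 72.0 CPM in CardioGRKO. These groups overlapped at both times. Cox6a1 fell at ZT0, with -0.21 ± 0.07 (adjusted p = 0.0364), but 9 of the 10 ways of leaving out 1 library ended that call (-0.26 to -0.17, adjusted p up to 0.113), every one except the removal of GRflox replicate 5. At ZT12 it gave -0.16 ± 0.07 (adjusted p = 0.0849).

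Cox7a1, the heart and muscle form of subunit 7a, was counted at 679, 741, 789, 729.9 and 801 CPM in GRflox and at 521, 696, 648, 619 and 655 CPM in CardioGRKO at ZT0. At ZT12, Cox7a1 stood at 880.2, 848, 782, 851 and 909 CPM in GRflox and at 585, 655, 663, 659 and 656 CPM in CardioGRKO. At ZT12 the genotypes were apart, while at ZT0 1 CardioGRKO library lay inside the GRflox range. The log2 fold change was -0.25 ± 0.06 (adjusted p = 0.0074) and -0.41 ± 0.06 (adjusted p = 3.47e-05). The ubiquitous Cox7a2 was counted at 216, 210.1, 199.9, 209 and 197 CPM in GRflox and at 172, 198, 186, 178 and 187 CPM in CardioGRKO at ZT0. At ZT12, Cox7a2 stood at 215, 220.2, 199.7, 209 and 207 CPM in GRflox and at 175, 190.1, 179, 193 and 183 CPM in CardioGRKO. At ZT0 1 CardioGRKO library of Cox7a2 lay inside the GRflox range, and at ZT12 the genotypes were apart. Its log2 fold change was smaller in size than that of Cox7a1, at -0.16 ± 0.04 (adjusted p = 0.0114) and -0.19 ± 0.04 (adjusted p = 0.00188).

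For subunit 8, the form that was called depended on the scaling. The heart form, Cox8b, was counted at 272, 255, 237, 257 and 248 CPM in GRflox and at 223, 255, 242, 211 and 250.0 CPM in CardioGRKO at ZT0. At ZT12, Cox8b stood at 246, 306, 264, 248 and 285 CPM in GRflox and at 215, 212, 205, 277 and 241 CPM in CardioGRKO. Its libraries overlapped at both times, with a log2 fold change of -0.10 ± 0.08 (adjusted p = 0.41) at ZT0 and -0.23 ± 0.08 (adjusted p = 0.0295) at ZT12, a fall with TMM. That call ended without GRflox replicate 2 or 5 or CardioGRKO replicate 1, 2 or 3 (-0.31 to -0.18, adjusted p up to 0.101). The ubiquitous Cox8a was counted at 112, 112, 119, 120.0 and 111 CPM in GRflox and at 119, 132, 118, 125 and 95.6 CPM in CardioGRKO at ZT0. At ZT12, Cox8a stood at 116, 118, 128, 129 and 114 CPM in GRflox and at 117, 113, 119, 129.8 and 102 CPM in CardioGRKO. These ranges overlapped at both times. Cox8a gave 0.04 ± 0.07 and -0.06 ± 0.07, with adjusted p of 0.755 and 0.596. On the marker scale edgeR called Cox8a as higher at both times, with 0.21 (adjusted p = 0.0431) and 0.19 (adjusted p = 0.0454), and Cox8b at neither (adjusted p = 0.529 and 0.859).

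Subunit 4 exists as the ubiquitous Cox4i1 and as Cox4i2, known as a lung form that responds to oxygen. Cox4i1 was counted at 1043, 1052, 1026, 1016 and 972 CPM in GRflox and at 929, 945, 942, 945 and 988 CPM in CardioGRKO at ZT0. At ZT12, Cox4i1 stood at 1055, 1028, 1029, 1073 and 1005 CPM in GRflox and at 892, 998, 939.8, 962 and 955 CPM in CardioGRKO. At ZT0 1 CardioGRKO library lay inside the GRflox range, and at ZT12 the genotypes were apart. The change was -0.11 ± 0.04 (adjusted p = 0.0526) at ZT0, just outside the threshold, and -0.13 ± 0.04 (adjusted p = 0.0122) at ZT12. Cox4i2 was counted at 12.3, 11.7, 10.4, 11.9 and 11.9 CPM in GRflox and at 8.07, 8.62, 10.2, 10.4 and 8.32 CPM in CardioGRKO at ZT0. At ZT12, Cox4i2 stood at 10.3, 12.9, 10.5, 11.1 and 11.4 CPM in GRflox and at 8.36, 8.69, 8.43, 8.35 and 9.82 CPM in CardioGRKO. All Cox4i2 libraries of CardioGRKO were below those of GRflox, and it fell, with -0.32 ± 0.08 (adjusted p = 0.0108) and -0.37 ± 0.08 (adjusted p = 0.00227). Its lowest library held 49 counts, and its ZT0 call ended with counts thinned to the shallowest library (edgeR, adjusted p = 0.0993). On the marker scale edgeR called Cox4i2 at neither time, with -0.16 and -0.12 (adjusted p = 0.162 and 0.222). Cox4i1 was called as higher on that scale at ZT12, with 0.12 (adjusted p = 0.0109).

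Among the other subunits of complex IV, Cox7b (-0.22 ± 0.05 and -0.31 ± 0.05), Cox6c (-0.15 ± 0.05 and -0.24 ± 0.05) and Cox5b (-0.15 ± 0.05 and -0.20 ± 0.05) fell at both times. Cox5a (-0.21 ± 0.06, adjusted p = 0.012) and Cox7c (-0.23 ± 0.05, adjusted p = 9.20e-04) fell at ZT12. Cox6b1, which faces the intermembrane space, gave 0.01 ± 0.04 and -0.03 ± 0.04, and Cox7a2l, a factor that joins complexes III and IV into supercomplexes, gave 0.05 ± 0.04 and -0.04 ± 0.04. With TMM neither passed the test. On the marker scale edgeR called both as higher at both times, with 0.18 and 0.22 for Cox6b1 (adjusted p = 0.00941 and 8.62e-04). For Cox7a2l the values were 0.23 and 0.21 (adjusted p = 0.00172 and 0.00157). The testis form Cox6b2 was counted at 0.419 to 1.57 CPM over all libraries, and its difference at ZT12 did not pass the test, at -0.54 ± 0.28 (adjusted p = 0.176). The ZT0 calls of Cox5b and Cox6c did not hold throughout, since 8 and 4 of the 10 ways of leaving out 1 library ended them. Cox5b then ranged over -0.17 to -0.13 (adjusted p up to 0.116; GRflox replicates 1 to 4 and CardioGRKO replicates 1, 2, 3 and 5) and Cox6c over -0.20 to -0.13 (adjusted p up to 0.0774; CardioGRKO replicates 1 to 4).

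Complex V consists of the catalytic F1 head, the Fo ring in the membrane and a peripheral stalk that holds them together. Of 17 members, 8 fell at ZT0 and 10 at ZT12 (on the marker scale 0 fell and 2 rose, and 0 fell and 5 rose), with medians of -0.12 and -0.17. Atp5c1 (chr2:10056030-10080510), the gamma subunit that turns within F1, was counted at 1045, 1028, 977, 1060.5 and 1011 CPM in GRflox and at 881, 858, 899, 862 and 954 CPM in CardioGRKO at ZT0. At ZT12, Atp5c1 stood at 1026, 1105, 1014, 986 and 1079 CPM in GRflox and at 809, 904, 797, 868 and 866 CPM in CardioGRKO. The genotypes did not overlap at either time. Its log2 fold change was -0.20 ± 0.04 (adjusted p = 0.00234) and -0.30 ± 0.04 (adjusted p = 2.08e-05), a fall of 13.0% and 18.6%.

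Atp5f1, subunit b of the peripheral stalk, was counted at 817, 840.4, 832, 823 and 793 CPM in GRflox and at 719.8, 726, 724, 694 and 745 CPM in CardioGRKO at ZT0. At ZT12, Atp5f1 stood at 874, 866, 811, 826 and 851 CPM in GRflox and at 688, 730.4, 690.2, 728 and 704 CPM in CardioGRKO. Its groups were apart at both times, with -0.19 ± 0.03 (adjusted p = 5.58e-04) and -0.26 ± 0.03 (adjusted p = 6.78e-06). The F1 subunits fell at both times apart from epsilon: alpha (Atp5a1, -0.13 ± 0.04 and -0.19 ± 0.04), beta (Atp5b, -0.17 ± 0.04 and -0.23 ± 0.04) and delta (Atp5d, -0.24 ± 0.05 and -0.29 ± 0.05). Epsilon (Atp5e) gave -0.05 ± 0.07 and -0.13 ± 0.06, and was called at neither time. Subunit c, whose ring turns with the protons, is made from 3 genes with the same mature protein. Atp5g1 (-0.23 ± 0.06 and -0.32 ± 0.06) and Atp5g3 (-0.18 ± 0.06 and -0.29 ± 0.06) fell at both times and Atp5g2 at ZT12 (-0.22 ± 0.05, adjusted p = 0.00286).

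In the stalk, OSCP (Atp5o) fell at both times (-0.12 ± 0.04 and -0.17 ± 0.04) and subunit d (Atp5h) at ZT12 (-0.15 ± 0.04, adjusted p = 0.00721), while F6 (Atp5j) gave -0.04 ± 0.06 and -0.09 ± 0.06 and was called at neither. The small Fo subunits e (Atp5k), f (Atp5j2) and g (Atp5l) were called at neither time with TMM, with 0.03 ± 0.07, -0.08 ± 0.04 and -0.03 ± 0.08 at ZT12. The 2 members that are no core subunits, Atp5s and Atp5sl, were not called either (-0.17 ± 0.08 and -0.12 ± 0.07 at ZT12). On the marker scale edgeR called Atp5j (0.13 and 0.16) and Atp5k (0.19 and 0.28) as higher at both times. Atp5j2 (0.17), Atp5l (0.22) and Atp5h (0.09) were called as higher on it at ZT12 only. In complex V, 3 calls at ZT0 with TMM did not hold with each library left out in turn. Atp5g3 lost its call without GRflox replicate 1 or 4 or CardioGRKO replicate 1, 4 or 5 (-0.21 to -0.15, adjusted p up to 0.108). Atp5o lost it without GRflox replicate 1 or 2 or CardioGRKO replicate 1, 3 or 4 (-0.14 to -0.11, adjusted p up to 0.0873), and Atp5a1 without CardioGRKO replicate 1, 2 or 4 (-0.14 to -0.12, adjusted p up to 0.0547).

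The balance of heart and ubiquitous isoforms was measured as a ratio of counts within each library, which does not depend on how libraries are scaled. Such a ratio can still differ with the mix of cell types, and the part of cell composition in it was not tested. Per kilobase of exon, the heart form supplied 96.6% ± 0.344 (SD, n = 5) of subunit 6a transcripts in GRflox at ZT0, 81.6% ± 1.55 of subunit 7a and 77.2% ± 1.31 of subunit 8. In CardioGRKO at ZT0 these shares were 96.1% ± 0.287, 80.7% ± 1.01 and 75.4% ± 2.91. At ZT12 they were 96.6% ± 0.107, 83.3% ± 0.695 and 77.2% ± 2.26 in GRflox and 95.7% ± 0.501, 81.2% ± 0.614 and 75.0% ± 2.38 in CardioGRKO. The log2 ratio of Cox6a2 to Cox6a1 counts was 5.17, 5.09, 4.84, 5.15 and 5.19 in GRflox and 4.76, 4.76, 4.998, 4.94 and 4.94 in CardioGRKO at ZT0. At ZT12, this Cox6a ratio was 5.04, 5.14, 5.02, 5.03 and 5.06 in GRflox and 4.78, 4.84, 4.47, 4.65 and 4.88 in CardioGRKO. The genotypes were apart at ZT12 and overlapped at ZT0. The difference was -0.33 ± 0.08 at ZT12 (2-sided exact permutation test, p = 0.00794, adjusted p = 0.0476 over 12 ratio tests) and -0.21 ± 0.08 at ZT0 (exact permutation p = 0.0476, adjusted p = 0.190).

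The log2 ratio of Cox7a1 to Cox7a2 was 1.65, 1.82, 1.98, 1.80 and 2.02 in GRflox and 1.60, 1.81, 1.80, 1.80 and 1.81 in CardioGRKO at ZT0. At ZT12, this Cox7a ratio was 2.03, 1.94, 1.97, 2.02 and 2.13 in GRflox and 1.75, 1.78, 1.89, 1.77 and 1.84 in CardioGRKO. All CardioGRKO values lay below all GRflox values at ZT12. The difference was -0.21 ± 0.04 at ZT12 (exact permutation p = 0.00794, adjusted p = 0.0476) and -0.09 ± 0.08 at ZT0 (exact permutation p = 0.198, adjusted p = 0.340). Without the shallowest library the latter was -0.05.

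The log2 ratio of Cox8b to Cox8a was 1.28, 1.19, 0.99, 1.10 and 1.17 in GRflox and 0.91, 0.96, 1.04, 0.76 and 1.39 in CardioGRKO at ZT0. At ZT12, this Cox8 ratio was 1.08, 1.38, 1.04, 0.95 and 1.32 in GRflox and 0.87, 0.90, 0.79, 1.09 and 1.24 in CardioGRKO. The groups overlapped widely, with differences of -0.14 ± 0.11 and -0.17 ± 0.12 (exact permutation p = 0.270 and 0.183, adjusted p = 0.405 and 0.340). The p of 0.00794 is the smallest that 5 against 5 libraries can give. Leaving out any 1 of the 5 GRflox libraries at ZT12 raised the adjusted p of both the Cox6a and the Cox7a difference to 0.0952. With any 1 of the 5 CardioGRKO libraries at ZT12 left out, both stayed at 0.0476. The genotypes stayed apart in each case, and exact p-values of so few libraries move in coarse steps. Over all libraries left out in turn the differences stayed between -0.37 and -0.27 for Cox6a and between -0.23 and -0.19 for Cox7a. Leaving out GRflox replicate 3 at ZT0 moved the Cox6a difference at ZT0 to -0.27, with an adjusted p of 0.0317. From ZT0 to ZT12 no ratio passed the test, and the largest shift was that of Cox7a in GRflox, at 0.16 ± 0.07 (exact permutation p = 0.0794, adjusted p = 0.238).

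**Figure D4:**
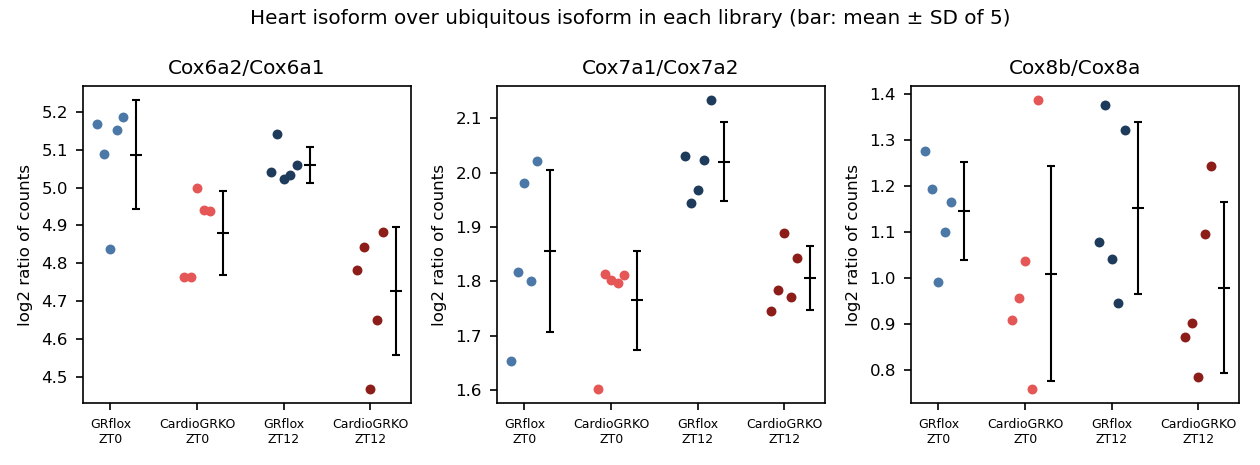
Log2 ratio of the counts of the heart isoform to those of the ubiquitous isoform (y axis; the axes differ and do not start at 0) in each library, by group (x axis); bars are the mean ± SD of 5. At ZT12 the CardioGRKO libraries lie below the GRflox libraries for Cox6a2/Cox6a1 and Cox7a1/Cox7a2, and overlap with them for Cox8b/Cox8a.

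Few of these genes were called between times of day. In GRflox, 1 of 47 members rose from ZT0 to ZT12 and 0 fell, while 8.13% of all genes rose and 9.17% fell. The gene was Cox7a1, with 0.19 ± 0.06 (adjusted p = 0.0356). Its call ended in 7 of the 10 ways of leaving out 1 GRflox library (0.15 to 0.22, adjusted p up to 0.113; replicates 1, 2 and 4 at ZT0, and 1, 2, 4 and 5 at ZT12). Cox5b was the member whose libraries did not overlap, all higher at ZT12 (5.93% of all genes did so higher and 6.57% lower), yet its change of 0.12 ± 0.05 (adjusted p = 0.0949) missed the threshold. DESeq2 called 2 members (Cox7a1 and Cox7a2l), and edgeR without GRflox replicate 1 at ZT12 called Cox7a2l (0.11, adjusted p = 0.0493) in place of Cox7a1. The member median was 0.03, beside 0.01 over all genes, with the members ranging from -0.18 (Atp5l) to 0.19. In CardioGRKO, 0 of 47 members were called by edgeR, where 4.42% of all genes rose and 4.75% fell, and 0 had libraries that did not overlap (3.51% of all genes higher and 3.61% lower). At an unadjusted p under 0.05 there were 3, and DESeq2 and limma-trend called 0 as well. Without CardioGRKO replicate 2 at ZT12, Atp5a1 was called as lower (-0.13, adjusted p = 0.0268), and without replicate 4 at ZT12 Atp5g2 was (-0.18, adjusted p = 0.0329). The median was -0.04, beside 0.00 over all genes. For Cox7a1 the change in CardioGRKO was 0.03 ± 0.06 (adjusted p = 0.815). On the marker scale, where 16.5% of all genes fell and 4.12% rose, 5 members fell in GRflox and 0 rose (Atp5l, Atp5b, Atp5h, Sdha and Atp5a1), and the call of Cox7a1 ended. The summed cardiomyocyte markers were themselves higher at ZT12 in GRflox, with the ranges given above.

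**Figure D5:**
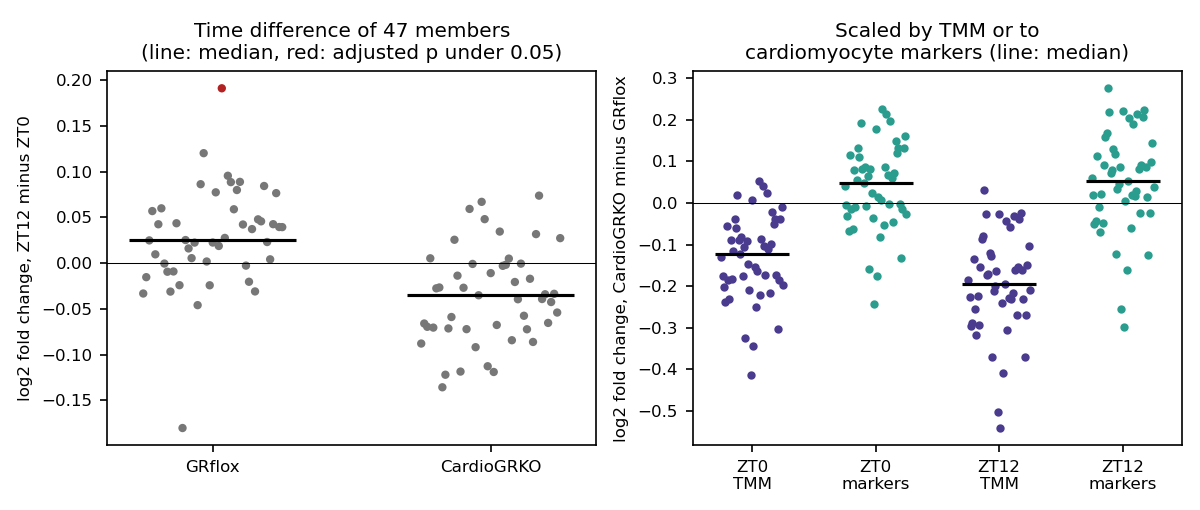
Left, log2 fold change from ZT0 to ZT12 (y axis) of the 47 members in each genotype (x axis), with the median as a line and the 1 called gene, Cox7a1, in red. Right, log2 fold change between CardioGRKO and GRflox (y axis) with libraries scaled by TMM or to 10 cardiomyocyte markers: the medians of -0.12 and -0.19 become 0.05 and 0.05.

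The interaction term asks whether the genotype difference itself changed with time. By edgeR 0 of 47 members were called, against 0.186% of all genes (0.0643% higher and 0.121% lower), and DESeq2 and limma-trend called 0 as well. At an unadjusted p under 0.05 there were 2, and the lowest adjusted p among members was 0.814. The fitted genotype difference was lower at ZT12 than at ZT0 for 42 of 47 members, with a median interaction of -0.06 beside 0.00 over all genes, but on the marker scale for 20 of 47, with a median of 0.02 beside 0.08. The 10 cardiomyocyte markers likewise had a negative interaction with TMM, 10 of 10 with a median of -0.07 and 0 called. The larger number of falls at ZT12 is a difference in counts of calls, and no single member passed this test. Members share libraries and vary together, so 42 of 47 is a description.

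Deviations of libraries from their group means were shared more within complexes II and V than within complex IV. Over 20 libraries the median Pearson correlation between deviations was 0.32 for all pairs of members, 0.54 within complex II, 0.33 within complex III, 0.21 within complex IV and 0.44 within complex V. Atp5h had the highest mean correlation with the other members (0.47) and Cox8a the lowest (-0.09). Complex IV includes members of low level, such as Cox6b2 (mean correlation 0.11) and Cox4i2 (0.07). No correlation over other genes was computed, and the part of counting noise was not tested. The points share libraries and their scaling, so these values carry no test.

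Per kilobase of exon, levels spanned several orders of magnitude among the members detected. In GRflox at ZT0 Cox6a2 was highest, at 4654 ± 336 CPM per kilobase (SD, n = 5), followed by the F1 subunits Atp5b (2675 ± 78.9) and Atp5a1 (1821 ± 23.8). Cox7a1 (1398 ± 91.5) and Cox4i1 (1336 ± 40.9) came next, and these neighbours did not differ beyond their spread. In CardioGRKO Cox6a2 stood at 3494 ± 249 at ZT0 and at 3232 ± 242 at ZT12, and kept the first place. At the low end were Cox4i2 (14.8 ± 0.889), Atp5s (9.16 ± 0.727) and Cox6b2 (1.28 ± 0.392). Exon lengths are unions over protein-coding transcripts, which lowers the value of genes with a long, rarely used exon. Many small subunits have processed pseudogenes, and the sources used here do not say how reads that match several places were counted, so their levels are uncertain.

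Genes that build or regulate the complexes were followed in lists chosen by their known role. Of the complex V list, Atpaf1, a chaperone for the F1 beta subunit, fell, with -0.21 ± 0.04 (adjusted p = 0.00189) at ZT0 and -0.42 ± 0.04 (adjusted p = 1.20e-07) at ZT12, and rose from ZT0 to ZT12 in GRflox (0.13 ± 0.04, adjusted p = 0.0371). Atpaf2, the chaperone for alpha, fell, with -0.16 ± 0.05 (adjusted p = 0.0456) and -0.20 ± 0.05 (adjusted p = 0.00685). Atpif1, the inhibitor that blocks ATP hydrolysis by complex V, went the other way and rose, with 0.30 ± 0.05 (adjusted p = 3.59e-04) and 0.38 ± 0.05 (adjusted p = 1.31e-05). Its libraries lay at 99.0, 89.4, 87.8, 95.9 and 86.2 CPM in GRflox and 130.2, 113, 111, 105 and 109 CPM in CardioGRKO at ZT0, with no overlap. Usmg5, a small subunit that helps the synthase form dimers, fell at ZT12 (-0.18 ± 0.05, adjusted p = 0.00725). In all, 1 of 5 rose and 2 fell at ZT0, and 1 rose and 3 fell at ZT12 (on the marker scale 1 rose and 0 fell, and 2 rose and 1 fell). Of all genes, 7.36% rose and 7.35% fell at ZT0 with TMM, and 10.4% and 10.7% at ZT12. On the marker scale 32.7% rose and 2.08% fell at ZT0, and 55.9% and 2.81% at ZT12. These shares apply to the genotype counts of the lists below as well.

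For complex IV, 1 of 21 assembly factors rose and 2 fell at either time (on the marker scale 8 rose and 1 fell at ZT0, and 11 rose and 0 fell at ZT12). These counts were near those of all genes, of which 7.36% rose and 7.35% fell at ZT0 and 10.4% and 10.7% at ZT12 with TMM. Cox10, which makes haem O for the complex, fell, with -0.35 ± 0.05 (adjusted p = 3.23e-05) and -0.38 ± 0.05 (adjusted p = 6.40e-06), and Cox19, which takes part in copper delivery, rose, with 0.49 ± 0.11 (adjusted p = 0.00255) and 0.68 ± 0.11 (adjusted p = 4.88e-05). Surf1 fell at ZT12 (-0.17 ± 0.05, adjusted p = 0.02) and Coa7 at ZT0 (-0.18 ± 0.06, adjusted p = 0.0498). These assembly factors are not subunits, and their symbols lie outside the rule for members. For complex III, edgeR, DESeq2 and limma-trend each called 0 of 5 factors between genotypes, with 1 at ZT0 and 1 at ZT12 at an unadjusted p under 0.05 (Lyrm7 and Bcs1l). Lyrm7 fell with time in CardioGRKO (-0.27 ± 0.06, adjusted p = 0.00599). For complex II, 2 of 4 listed factors were found under their listed symbols, Sdhaf1 (-0.08 ± 0.07 at ZT12) and Sdhaf2 (-0.01 ± 0.05 at ZT12). The same tools called 0 of them between genotypes, and 0 had an unadjusted p under 0.05.

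Of 17 regulators of mitochondrial gene expression, 5 fell and 0 rose at ZT0, and 6 fell and 1 rose at ZT12 (on the marker scale 1 fell and 1 rose, and 1 fell and 9 rose). The shares over all genes were 7.35% lower and 7.36% higher at ZT0, and 10.7% and 10.4% at ZT12. Perm1, a muscle regulator induced by PGC-1 proteins, fell, with -0.33 ± 0.05 (adjusted p = 2.17e-05) and -0.31 ± 0.05 (adjusted p = 2.72e-05). Ppargc1a, which encodes PGC-1alpha, gave -0.15 ± 0.09 (adjusted p = 0.306) at ZT0 and fell at ZT12, with -0.64 ± 0.09 (adjusted p = 1.77e-05). Its libraries lay at 228, 244, 279, 226 and 229 CPM in GRflox and 157, 159, 148, 147 and 163 CPM in CardioGRKO at ZT12, where the genotypes did not overlap. Ppara, a nuclear receptor for fatty acids, gave -0.08 ± 0.07 (adjusted p = 0.494) and fell, with -0.36 ± 0.06 (adjusted p = 2.18e-04) at ZT12. From ZT0 to ZT12 in GRflox, 3 of the 17 rose and 6 fell (1 rose and 9 fell on the marker scale), beside 8.13% and 9.17% of all genes with TMM. Both Ppargc1a (0.31 ± 0.09, adjusted p = 0.0217) and Ppara (0.35 ± 0.06, adjusted p = 4.40e-04) rose, whereas Gabpb1, a partner of Gabpa, fell (-0.38 ± 0.07, adjusted p = 4.30e-04). In the interaction of genotype and time, edgeR called no regulator, with a lowest adjusted p of 0.210. At an unadjusted p under 0.05 there were 3 of 17.

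Complex I is the remaining proton pump of the chain, and its list holds 38 genes. They were chosen by symbol alone (Nduf followed by a, b, c, s or v and digits, and Ndufab1). The list can thus hold genes that are no subunits of complex I. Of 37 tested, 8 fell and 0 rose at ZT0, and 26 fell and 0 rose at ZT12 (on the marker scale 1 fell and 6 rose, and 2 fell and 10 rose), with medians of -0.09 and -0.17. Over all genes 7.35% fell and 7.36% rose at ZT0 and 10.7% and 10.4% at ZT12. For complexes II to V and cytochrome c the same counts were 22 and 31 of 47, with medians of -0.12 and -0.19. Whether the 2 groups of genes differ was not tested.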

How the data were processed

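Poly(A) RNA was sequenced as 75-base paired ends. The submitters' processing notes name STAR 2.5.1, featureCounts from Subread 1.5.1, DESeq2 1.38.3 and mm10. The sources used here give neither the strand setting, the annotation nor the treatment of reads matching several places. The deposited files hold raw whole-number counts per gene, made by the authors and not normalized. Lines of 1 Entrez identifier were summed, which took 24918 lines to 24059 genes.

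Genes were kept by edgeR's filterByExpr (minimum count 10, minimum total 15), which left 14007. All 20 libraries were fitted together with edgeR 4.0.16 in R 4.3.3, with TMM scaling, 1 mean per group and quasi-likelihood tests. P-values were adjusted over all genes by Benjamini-Hochberg, and called means an adjusted p under 0.05. Standard errors are the log2 fold change over the root of its F. The common biological coefficient of variation was 8.78%. CPM values are scaled by TMM. Pairs of replicates differed beyond sampling noise, with a chi-square per gene of 4.22 to 20.96, so no pair agreed within counting noise and each was counted as 1 library. This does not show that they come from separate animals. Isoform ratios (0.5 counts added) were tested by 2-sided exact permutation, adjusted over 12 tests. Alternatives used DESeq2 1.42.0, limma 3.58.1, other scalings and filters, thinned counts, a replicate block and each library left out. The code was tested on simulated data. Exon lengths are from GENCODE gene models on GRCm38, and gene positions and promoter sequences from RefSeq on GRCm38.p6, the assembly behind mm10.

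Members and lists were chosen with earlier results of these data known. Library values were given, by rule, for Uqcrc1, Cox6a2, Sdhb, Atp5c1, the isoform pairs of complex IV, and the 2 members of each complex with the smallest p between genotypes at ZT12. Of each list of other genes, up to 4 with the smallest p were named.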

Additional observations from a re-analysis of the deposited data

Results flagged for a closer look

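In 19 of the 204 groups of 5 libraries looked at, the highest or lowest library stood apart from the other 4 by more than Dixon's 95% critical value of 0.710. Chance gives about 1 in 20, or 10.2 groups. Libraries of CardioGRKO at ZT0 accounted for many of them. Replicate 1 there, the shallowest library, was low for Atp5sl at 52.4 CPM (others 59.0 to 60.8), for Atp5g2 at 52.0 CPM (56.1 to 57.8) and for the log2 ratio of Cox7a1 to Cox7a2 at 1.60 (1.80 to 1.81). Replicate 5 was low for Cox6a1 at 73.3 CPM (81.6 to 83.5) and high for Cox4i1 at 988 CPM (929 to 945), Cox6c at 479 CPM (399 to 421) and Atp5j at 358 CPM (294 to 310.5). Replicate 4 was low for Atp5l at 85.2 CPM (102 to 107).

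In CardioGRKO at ZT12, replicate 1 was low for Atp5k at 209 CPM (others 252 to 265) and for Cox7a1 at 585 CPM (655 to 663). Replicate 5 was high for Cox4i2 at 9.82 CPM (8.35 to 8.69), and replicate 4 was high for Atp5d at 835 CPM (698 to 729.8). In GRflox at ZT0, Uqcrb was low in replicate 1 at 672 CPM (688 to 689.6), Cox6b1 in replicate 4 at 568 CPM (587 to 594), Uqcrq in replicate 5 at 328 CPM (366 to 379.6), and the log2 ratio of Cox6a2 to Cox6a1 in replicate 3 at 4.84 (5.09 to 5.19). In GRflox at ZT12, Uqcrc1 was low in replicate 1 at 1465 CPM (1539.5 to 1553), and replicate 2 was high for Atp5j2 at 272 CPM (255 to 259.7) and Cox7b at 592 CPM (513 to 534).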

How the results depend on the processing

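In the fit without the replicate number, 22 and 31 members fell in CardioGRKO at ZT0 and ZT12. These counts were 23 and 32 with the replicate number as a block, 24 and 31 with DESeq2, 22 and 31 with limma-trend, 22 and 27 with only the compared groups fitted, 18 and 27 with counts thinned to the shallowest library, 20 and 31 without the low count filter, 21 and 31 with a minimum count of 50, and 20 to 22 and 30 to 31 with other size factors. Leaving out 1 library gave 16 to 24 at ZT0 and 28 to 31 at ZT12, and 0 members rose in any of these. Scaling to cardiomyocyte markers aside, 13 of 22 calls at ZT0 and 25 of 31 at ZT12 held under every alternative run, and the call of Cox7a1 over time in GRflox did not. The count over time in GRflox was 0 without the filter or with thinned counts, 2 with the block, with only the groups compared or with DESeq2, and 0 to 1 with a library left out. In CardioGRKO over time it was 0 to 1. The cause of these shifts was not tested. Correlations of same-numbered deviations ran from -0.27 to 0.23, and 6 of 20 same-numbered pairs were over 0.1. Whether the number marks a shared batch cannot be told from these values. In the paired form of the ratio test the differences at ZT12 were -0.33 for Cox6a2/Cox6a1 and -0.21 for Cox7a1/Cox7a2 with an adjusted p of 0.25, since 5 pairs cannot give an exact p below 0.0625. Leaving out 1 library gave -0.27 to -0.18 for Cox6a2/Cox6a1 at ZT0, -0.37 to -0.27 at ZT12, and -0.23 to -0.19 for Cox7a1/Cox7a2 at ZT12.

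Scaling to the summed cardiomyocyte markers, added after seeing the data, turned the prevailing direction of called members. There were 12 calls at ZT0 (10 higher), 16 at ZT12 (13 higher) and 5 over time in GRflox (all lower). Of all genes, 32.7% rose and 2.08% fell at ZT0 on this scale, and 55.9% and 2.81% at ZT12. Over time in GRflox 4.12% rose and 16.5% fell. Medians at ZT0 became 0.020 for complex IV, 0.066 for complex II, 0.049 for complex V, -0.0029 for complex III and 0.049 for all members. At ZT12 they became 0.026, 0.086, 0.072, 0.037 and 0.053 in the same order. Called genes then numbered 4 for complex IV, 1 for complex II, 2 for complex V and 4 for complex III at ZT0, and 6, 1, 5 and 3 at ZT12. Complex I had 7 at ZT0, 12 at ZT12 and 2 over time in GRflox, and the regulators 10 at ZT12. The complex V factors had 1 at ZT0 and 3 at ZT12, and the complex IV factors 9 and 11. Complex IV factors also changed their prevailing direction, with 3 calls each, with thinned counts at ZT12 and at ZT0 without CardioGRKO replicate 2, 4 or 5. The log2 fold change turned positive for 23 of 47 members at ZT0 and 33 at ZT12. Of these, 10 and 29 were called on either scale. At ZT0 the 10 were Cox5b 0.025, Uqcrh 0.16, Sdhd 0.15, Cox7a2 0.0066, Uqcr11 0.13, Uqcrfs1 0.13, Cox6c 0.015, Atp5j 0.13, Atp5o 0.049 and Atp5a1 0.040. At ZT12 the 29 were Cox5b 0.046, Sdhc 0.091, Uqcrh 0.14, Atp5j2 0.17, Cycs 0.21, Cox6b1 0.22, Cox8b 0.017, Cox4i1 0.12, Atp5l 0.22, Sdhd 0.21, Cox5a 0.034, Cox7a2 0.053, Uqcr11 0.086, Atp5b 0.020, Uqcr10 0.22, Uqcrq 0.037, Atp5h 0.091, Uqcrfs1 0.098, Uqcrb 0.015, Sdha 0.081, Cox7c 0.018, Cox6c 0.0048, Cyc1 0.030, Atp5g2 0.022, Atp5j 0.16, Atp5o 0.072, Cox7a2l 0.21, Atp5a1 0.060 and Cox8a 0.19. Depth limited what members of low level could show: Cox6b2 was counted at about 1 CPM, and its standard error was the largest among members.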
